A study of Mus musculus with 7 samples.

Results

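Immediate early genes are the genes that cells switch on within minutes of a stimulus from regulators already present, without new protein synthesis. The 10 described here were taken from a fixed list of early transcription factors, early response genes and feedback regulators (Fos, Fosb, Jun, Junb, Egr1, Atf3, Ier2, Ier3, Dusp1 and Zfp36), and all 10 were measured among the 19937 genes that had a probe set with 1 gene symbol. Each gene had 1 such probe set, so no choice between probe sets was needed. The cells were medullary epithelium of the thymus of NOD mice, sorted for a high level of MHC class II. The reconRAG1KO group (4 samples) came from mice with a null RAG1 gene and is the control of the series. The reconSCID group (3 samples) derived from SCID mice, in which DNA-PK is mutated. Recipients of both groups were irradiated with 200 rad as pups of 2 to 4 days and given bone marrow into the peritoneum 6 h later, and their thymi were taken after 6 to 8 weeks. Thymi of both groups were digested with collagenase and dispase, and cells were sorted into Trizol. The number of thymi behind a sample and the genotype of the donor marrow are not stated in the labels, which name the samples biological replicates, so the p-values measure only the spread between these samples.

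As background, growth factors, stress and cytokines reach these genes through MAP kinases, which phosphorylate factors bound to serum response elements and cAMP response elements in their promoters. Fos and Jun family proteins pair through leucine zippers to form the transcription factor AP-1, while Dusp1 and Zfp36 end the response, the former by dephosphorylating MAP kinases and the latter by speeding the decay of AU-rich transcripts. Their transcripts are short-lived. Enzymatic digestion of tissue is known to induce immediate early genes in the released cells. The labels do not state the time from digestion to lysis, and tissue that had not been digested was not analysed here.

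The promoters of the members were searched for the elements named above, the AP-1 site and a TATA motif. RefSeq promoter sequences of build GRCm38.p6 were used for 8 of the 10 members and were searched over the 200 bases before the annotated start. For the members the search left out the chromosome on which Egr1 lies, and no promoter of Egr1 or Ier2 was used. The full cAMP response element, TGACGTCA on either strand, occurred in 1 of the 8, Dusp1, against 1.47% of 32851 promoter windows of this length. Its core TGACG on either strand, which overlaps the full element, occurred in 5 of the 8 (Fos, Fosb, Junb, Atf3 and Dusp1) against 15.7% of all windows. The looser TGACNTCA on either strand, which includes the full element, was present in Jun and Dusp1 and in 6.62% of all windows. Zfp36 alone of the 8 held a CArG box, the core of the serum response element, within these 200 bases, against 1.18% of all windows. Sites further from the start were not searched. TATAAA on the gene strand was present in Fos and in 6.27% of all windows. None of the 8 held the AP-1 site TGACTCA, on either strand, within this window, against 3.66% of all windows. Matches are descriptions of these letters only.

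The windows of all 8 members with a sequence are printed 5′ to 3′, whatever their values on the arrays. Capitals mark TGACG and its complement, TGACNTCA, TATAAA and the CArG box.
Fos (chr12:85473690-85473889, plus strand): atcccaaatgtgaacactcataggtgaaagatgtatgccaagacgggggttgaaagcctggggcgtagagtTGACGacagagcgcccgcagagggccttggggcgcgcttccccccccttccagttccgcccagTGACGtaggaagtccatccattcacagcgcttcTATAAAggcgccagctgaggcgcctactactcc
Fosb (chr7:19310046-19310245, minus strand): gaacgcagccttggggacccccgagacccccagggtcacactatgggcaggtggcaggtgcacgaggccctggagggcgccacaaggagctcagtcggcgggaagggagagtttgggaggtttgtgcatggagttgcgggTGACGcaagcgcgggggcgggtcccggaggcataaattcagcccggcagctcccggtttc
Jun (chr4:95052223-95052422, minus strand): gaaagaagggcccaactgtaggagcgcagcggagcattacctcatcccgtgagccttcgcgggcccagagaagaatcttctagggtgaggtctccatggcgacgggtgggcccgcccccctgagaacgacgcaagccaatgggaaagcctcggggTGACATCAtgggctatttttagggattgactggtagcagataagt
Junb (chr8:84978749-84978948, minus strand): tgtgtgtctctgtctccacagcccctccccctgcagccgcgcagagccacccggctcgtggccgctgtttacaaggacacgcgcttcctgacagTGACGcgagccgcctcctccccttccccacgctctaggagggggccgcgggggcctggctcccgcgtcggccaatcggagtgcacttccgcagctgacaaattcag
Atf3 (chr1:191183334-191183533, minus strand): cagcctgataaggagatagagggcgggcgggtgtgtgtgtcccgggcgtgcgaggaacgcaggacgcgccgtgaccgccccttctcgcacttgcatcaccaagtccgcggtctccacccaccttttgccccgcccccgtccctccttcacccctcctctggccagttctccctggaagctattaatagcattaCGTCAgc
Dusp1 (chr17:26508473-26508672, minus strand): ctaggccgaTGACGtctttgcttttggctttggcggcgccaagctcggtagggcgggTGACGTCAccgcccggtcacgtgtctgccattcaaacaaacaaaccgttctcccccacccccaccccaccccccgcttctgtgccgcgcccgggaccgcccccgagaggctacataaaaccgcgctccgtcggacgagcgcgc
Zfp36 (chr7:28379229-28379428, minus strand): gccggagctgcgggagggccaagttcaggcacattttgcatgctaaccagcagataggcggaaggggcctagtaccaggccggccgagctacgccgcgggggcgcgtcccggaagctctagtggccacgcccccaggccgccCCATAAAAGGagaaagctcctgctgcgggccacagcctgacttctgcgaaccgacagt
Ier3 (chr17:35821513-35821712, plus strand): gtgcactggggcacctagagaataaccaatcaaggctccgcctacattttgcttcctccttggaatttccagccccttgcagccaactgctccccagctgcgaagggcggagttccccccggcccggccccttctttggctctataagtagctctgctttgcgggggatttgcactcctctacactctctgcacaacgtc

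In Fos, TGACG began 129 and 66 bases before the start and TATAAA 33 bases before it. In Fosb and Junb TGACG began 60 and 106 bases before the start, and in Atf3 its complement lay 7 bases before the start. In Jun the looser element began 45 bases before the start. In Dusp1 the full element began 143 bases before the start, and a further TGACG began 191 bases before it. In Zfp36 the CArG box began 58 bases before the start. The window of Ier3 held none of these elements.

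The 7 arrays did not form a homogeneous series. A smaller set consisted of reconRAG1KO replicate 4 and reconSCID replicate 2, whose mutual correlation was 0.972, against 0.922 to 0.947 with the remaining 5. Among those 5, correlations were 0.976 to 0.990. The labels name no batch, and each of these array sets held both groups, so group differences were also fitted with the array set as a term (the blocked difference) and taken within each set. Ribosomal protein genes were lower on both arrays of the smaller set than on all 5 others in 51 of 53 cases. This was so for 18.7% of all probe sets. All 10 medullary epithelial markers, Aire, Fezf2, Epcam and Cd80 among them, lay above the array median on all 7 arrays. So did 10035 of all 19937 genes. Markers of other cells did so too, 7 of 9 for dendritic cells and macrophages and 6 of 10 for endothelium and fibroblasts. For thymocytes it was 5 of 9, for B cells 5 of 9, for cortical epithelium 5 of 7 and for neutrophils 2 of 10.

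Between reconSCID and reconRAG1KO, 0 of the 10 members passed at a limma adjusted p under 0.05, and 0 had an unadjusted p under 0.05. Of all 34760 probe sets, 0% passed after adjustment and 3.33% (1159) had an unadjusted p under 0.05. Differences of the members, reconSCID minus reconRAG1KO on the log2 scale, ran from -0.15 (Junb) to 0.25 (Atf3), with a median of -0.02 beside -0.01 over all genes. The median size of the difference, without its sign, was 0.07 for the members and 0.09 for all genes. With the array set in the fit 0 members passed again and 0 had an unadjusted p under 0.05, beside 0% and 12.3% of all probe sets. Blocked differences ran from -0.19 (Junb) to 0.19 (Fos and Atf3), with a median of -0.01 for the members and for all genes. For none of the 10 did the groups separate without overlap, beside 3.52% of all probe sets.

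**Figure D1:**
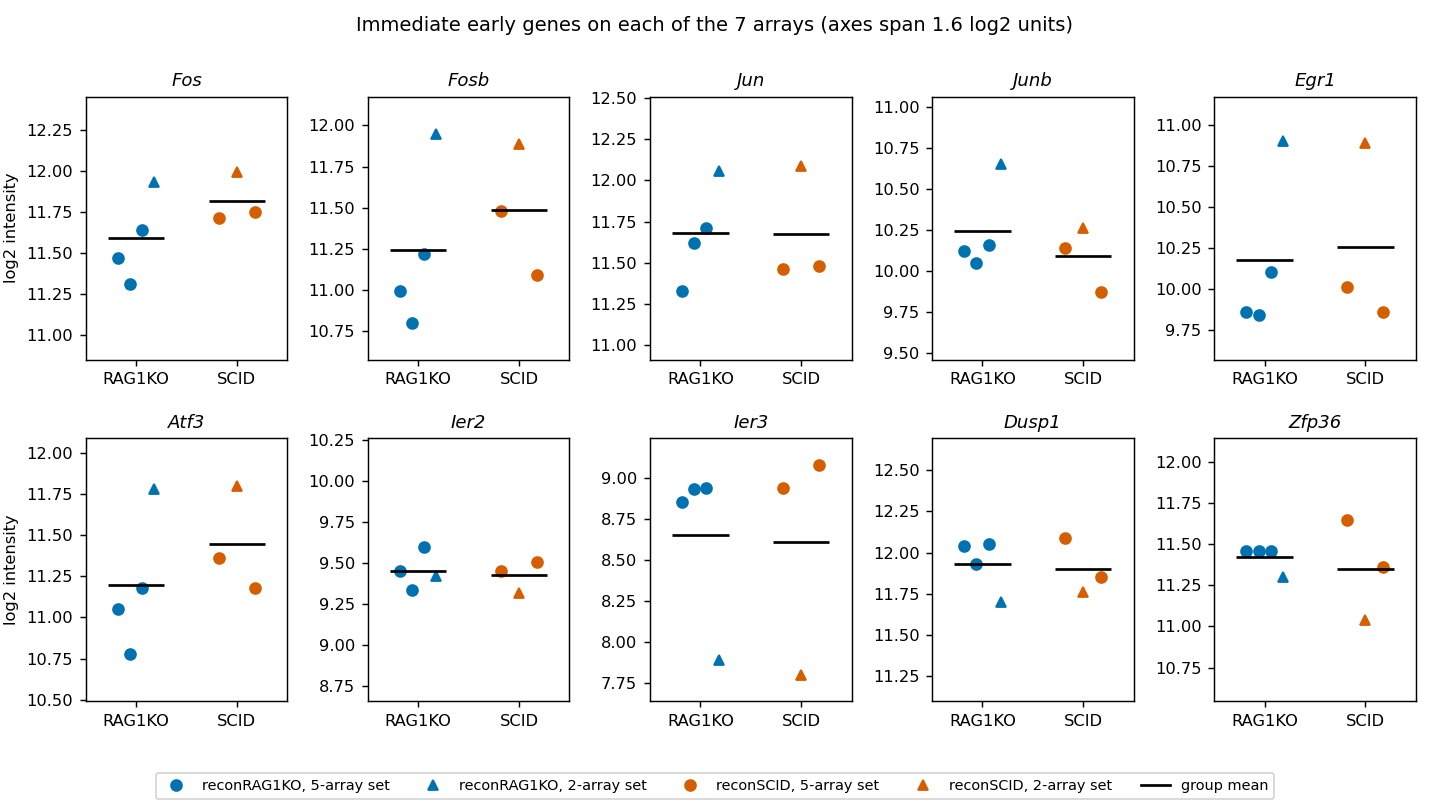
Log2 intensity of each of the 10 immediate early genes on each array, reconRAG1KO in blue and reconSCID in orange, with triangles for the 2 arrays of the smaller array set, circles for the other 5 and a bar for the group mean. All axes span the same 1.6 log2 units. Groups overlap in every panel, and the triangles lie above the circles for 6 genes and below them for 3.

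Fos encodes the inducible partner of Jun proteins in AP-1. It measured 11.47, 11.31, 11.64 and 11.93 in reconRAG1KO replicates 1 to 4 and 11.71, 11.99 and 11.75 in reconSCID replicates 1 to 3, as log2 intensity. Both groups had their highest value on the array of the smaller set. The means were 11.59 ± 0.26 (SD, n = 4) for reconRAG1KO and 11.81 ± 0.16 (SD, n = 3) for reconSCID. Fos thus differed by 0.23 (95% interval -0.17 to 0.62), at a limma adjusted p of 1. Its blocked difference was 0.19 (interval -0.04 to 0.43), at an unadjusted limma p of 0.08851, the smallest of the 10 members, and an adjusted p of 0.4657. Within the 5 arrays both reconSCID samples lay above all 3 reconRAG1KO samples and the difference was 0.25, while within the 2 arrays it was 0.06. Such separation within the 5 arrays, in this direction, was found for 15.7% of all probe sets.

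Fosb, the closest relative of Fos on the list, measured 10.99, 10.80, 11.22 and 11.95 in reconRAG1KO and 11.48, 11.89 and 11.09 in reconSCID. Again the highest sample of each group belonged to the smaller set, and reconSCID replicate 3 lay within the range of reconRAG1KO replicates 1 to 3. The difference of Fosb was 0.24 (interval -0.50 to 0.99), and the blocked difference 0.18 (interval -0.19 to 0.55). It was 0.28 within the 5 arrays and -0.06 within the 2 arrays. Fos minus Fosb, a log2 ratio of 2 probe sets within an array, was 0.42 to 0.51 in reconRAG1KO replicates 1 to 3 and -0.02 in replicate 4, and 0.23, 0.11 and 0.66 in reconSCID.

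Jun, the main DNA-binding partner of Fos, measured 11.33, 11.62, 11.71 and 12.06 in reconRAG1KO and 11.46, 12.09 and 11.48 in reconSCID. The smaller set held the highest value of each group, and the ranges of the groups overlapped. Group means of Jun were 11.68 ± 0.30 (SD, n = 4) and 11.68 ± 0.36 (SD, n = 3). The difference was -0.0048 (interval -0.54 to 0.53), and the blocked difference -0.05 (interval -0.31 to 0.21).

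Junb, an AP-1 subunit that can restrain Jun, measured 10.12, 10.05, 10.16 and 10.65 in reconRAG1KO and 10.14, 10.26 and 9.87 in reconSCID. The highest sample was reconRAG1KO replicate 4 and the lowest reconSCID replicate 3. Its difference, -0.15 (interval -0.58 to 0.27), was the most negative of the members, and its blocked difference was -0.19 (interval -0.43 to 0.05), at an unadjusted limma p of 0.1026. Junb differed by -0.11 within the 5 arrays and by -0.39 within the 2 arrays.

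Egr1 encodes a zinc finger factor that growth factor signalling induces through serum response elements. Its values were 9.86, 9.84, 10.10 and 10.90 in reconRAG1KO and 10.01, 10.89 and 9.86 in reconSCID. Outside the smaller set all 5 values of Egr1 lay between 9.84 and 10.10. The difference of 0.08 had an interval from -0.75 to 0.91. Blocked, it was -0.0031 (interval -0.22 to 0.21).

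Atf3, a stress-induced factor of the ATF family that also pairs with Jun proteins, measured 11.05, 10.78, 11.18 and 11.78 in reconRAG1KO and 11.36, 11.80 and 11.18 in reconSCID. Its difference was the largest of the members, 0.25 (interval -0.38 to 0.88), and the blocked difference 0.19 (interval -0.10 to 0.49). Within the 5 arrays Atf3 differed by 0.27, and within the 2 arrays by 0.02. The deposited value of reconRAG1KO replicate 3 was identical to that of reconSCID replicate 3.

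Ier2, a nuclear early response protein, varied least of the members, over 0.28 log2 units in all. It measured 9.45, 9.34, 9.60 and 9.42 in reconRAG1KO and 9.45, 9.32 and 9.51 in reconSCID. The difference of Ier2 was -0.03 (interval -0.26 to 0.21), the narrowest of the 10, and the blocked difference -0.02 (interval -0.21 to 0.18).

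Ier3, a stress-inducible regulator of cell survival, varied most, over 1.28 log2 units. In reconRAG1KO it measured 8.85, 8.93, 8.94 and 7.89, and in reconSCID 8.94, 7.80 and 9.08. Each group thus held 1 array far below the others, that of the smaller set. The difference was -0.04 (interval -0.99 to 0.90), the widest of the members, while the blocked difference was 0.05 (interval -0.13 to 0.22). In the 5 arrays the reconSCID samples were higher than all 3 reconRAG1KO samples, by 0.10 on average, as for 15.7% of all probe sets, while within the 2 arrays Ier3 differed by -0.09.

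Dusp1, the MAP kinase phosphatase, measured 12.04, 11.93, 12.05 and 11.70 in reconRAG1KO and 12.09, 11.76 and 11.85 in reconSCID. Values of the smaller set were the lowest. Its difference was -0.03 (interval -0.34 to 0.28), and the blocked difference -0.01 (interval -0.21 to 0.19). Zfp36, which encodes the decay factor tristetraprolin, measured 11.46 in each of reconRAG1KO replicates 1 to 3, 11.30 in replicate 4, and 11.65, 11.04 and 11.36 in reconSCID. The 3 equal values of Zfp36 were identical in the deposited table, so its spread in reconRAG1KO, 0.08 (SD, n = 4), may be too small. The difference of Zfp36 was -0.07 (interval -0.43 to 0.29), and the blocked difference -0.05 (interval -0.29 to 0.20).

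**Figure D2:**
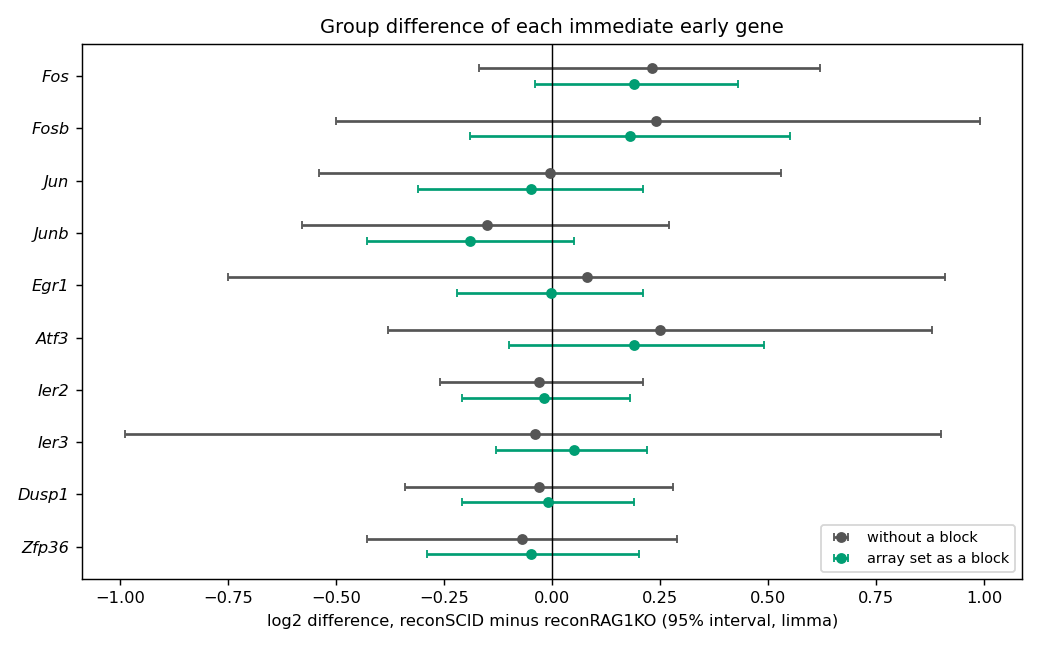
Log2 difference of each immediate early gene between reconSCID and reconRAG1KO, with its 95% interval from limma, without a block in grey and with the array set blocked in green. Every interval includes 0, and the intervals of Ier3 and Egr1 narrow most with the block, from -0.99 to 0.90 and -0.75 to 0.91 down to -0.13 to 0.22 and -0.22 to 0.21.

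The intervals give the size of difference that these arrays leave possible under each fit. Without the block they ran from -0.99 to 0.90 for Ier3, from -0.75 to 0.91 for Egr1 and from -0.54 to 0.53 for Jun. The array sets were found from the same values, so the blocked intervals may be too narrow. Blocked intervals of Egr1, Ier2, Ier3, Dusp1, Zfp36 and Jun stayed within 0.31 log2 units of 0, while those of Fos, Fosb and Atf3 reached 0.43, 0.55 and 0.49 on the higher side and that of Junb -0.43 on the lower side. A p that misses the threshold does not show that the levels were equal.

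For all 10 members the difference between the array sets was larger than that between the groups. Over all genes, too, the median size was larger between the sets, 0.28 against 0.09. The share of all genes with this order was not counted. Because the sets were found from the same values, their differences are given without a test. The smaller set was higher without overlap for 6 members, beside 32.7% of all probe sets, and lower without overlap for 3, beside 18.7%. Egr1 averaged 9.93 ± 0.12 (SD) on the 5 arrays and 10.89 on the 2, a log2 difference of 0.96. Fosb differed by 0.80, Atf3 by 0.68, Jun by 0.56, Fos by 0.39 and Junb by 0.39. In the opposite direction, Ier3 averaged 8.95 ± 0.08 (SD) on the 5 arrays and 7.84 on the 2, a difference of -1.11, while Zfp36 differed by -0.31 and Dusp1 by -0.26. Ier2 overlapped, at -0.10. The 6 higher members encode transcription factors, and the 3 lower ones the feedback regulators Dusp1 and Zfp36 and the survival regulator Ier3. This split was seen in the values and was not tested. The separate list of AP-1 partners and other bZIP genes did not run one way between the sets, with 5 of 19 higher and 5 lower without overlap.

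The 2 arrays of the smaller set came from different groups. They were put together because their values were alike, so close values of single members are no separate result. They differed by 0.01 in Egr1, 0.02 in Atf3, 0.03 in Jun and 0.06 in Fos and in Fosb, and by 0.39 in Junb and 0.26 in Zfp36. Over all genes the median difference between the sets was 0.12, and over the members it was 0.39. The median size of this difference, without its sign, was 0.28 for all genes and 0.47 for the members. Ribosomal protein genes had a median of -1.49 between the same sets. Endothelial and fibroblast markers had a median of 1.16, with 9 of 10 higher and 1 lower without overlap. Their summed intensities were 1491 to 3922 in reconRAG1KO and 1570 to 6560 in reconSCID. Neutrophil markers had a median of -1.29, dendritic cell and macrophage markers of -1.02, thymocyte markers of -0.93, B cell markers of -0.51 and MHC class II genes of -0.27. Medians of cortical and of medullary epithelial markers were 0.81 and 0.67. In each list 4 were higher and 1 lower without overlap, beside 32.7% and 18.7% of all probe sets. The part of RNA quality or of other cells in the array set differences was not tested.

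**Figure D3:**
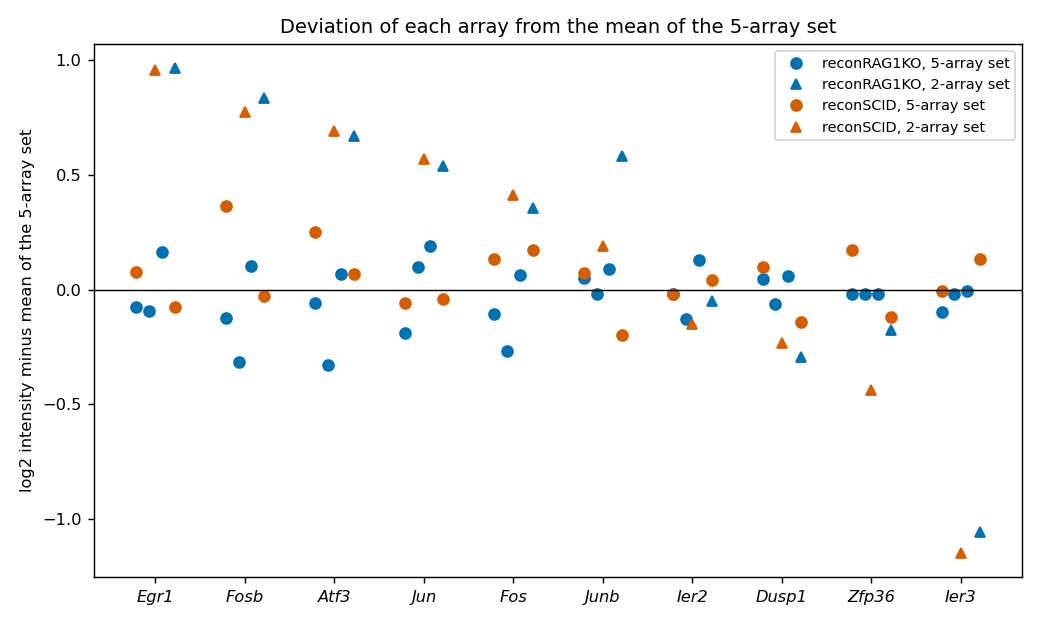
Log2 intensity of each array minus the mean of the 5 arrays of the larger set, for each immediate early gene in order of the array set difference; triangles mark the 2 arrays of the smaller set, blue is reconRAG1KO and orange reconSCID. Triangles of both groups lie together near 0.96 for Egr1 and near -1.11 for Ier3.

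No gene of the wider early response passed between the groups. Of 56 other early response genes, all measured, 30 were higher and 26 lower in reconSCID, with a median log2 difference of 0.02, and 0 passed by limma in either direction. An unadjusted p under 0.05 was found for 2 of them as higher and 0 as lower, beside 2.2% and 1.13% of all probe sets. In the blocked fit 9 had an unadjusted p under 0.05 as higher and 0 as lower, beside 6.53% and 5.77%. The members with the smallest unblocked p were Errfi1, a feedback inhibitor of the EGF receptor, with a difference of 0.29 ± 0.11 (SE), Egr3, a relative of Egr1, with 0.37 ± 0.14 (SE), the clock gene Per1 with 0.26 ± 0.11 (SE) and Phlda1 with 0.38 ± 0.19 (SE), each at a limma adjusted p of 1. Egr3 measured 7.86, 8.02, 7.71 and 8.28 in reconRAG1KO and 8.30, 8.37 and 8.34 in reconSCID, so that its groups did not overlap. The highest control of Egr3, replicate 4, lay 0.09 below the reconSCID array of the same array set.

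Genes of the Nr4a family, orphan nuclear receptors induced by many of the same signals, were singled out after their values had been seen. Nr4a1 measured 11.23, 11.14, 10.99 and 10.32 in reconRAG1KO and 11.75, 10.40 and 11.91 in reconSCID. Within each array set the reconSCID values of Nr4a1 lay above those of reconRAG1KO, a separation that 15.7% of all probe sets showed within the 5 arrays. Nr4a3 overlapped there, with 10.52 in reconRAG1KO replicate 1 and 10.49 in reconSCID replicate 3. The blocked difference of Nr4a1 was 0.53 (interval 0.17 to 0.88), at an unadjusted limma p of 0.01119 and an adjusted p of 0.2923. Unblocked, the difference of Nr4a1 was 0.43 (interval -0.54 to 1.41). Nr4a2 and Nr4a3 had blocked differences of 0.53 and 0.44, with limma adjusted p of 0.2897 and 0.3274. Unblocked, their intervals were -0.47 to 1.36 and -1.47 to 2.00. Between the array sets the family ran against Fos, Jun and Egr1, with differences of -1.04 (Nr4a1), -0.96 (Nr4a2) and -2.01 (Nr4a3) in the smaller set.

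Of 56 other early genes 12 were higher and 21 lower in the smaller set without overlap, beside 32.7% and 18.7% of all probe sets. The secreted matrix protein gene Ccn1 was 2.04 higher and Jund, a further AP-1 subunit, 0.88 higher. Dusp2, another MAP kinase phosphatase, had a difference of -1.66 and the chemokine gene Cxcl2 of -1.71. These genes were chosen after their values had been seen.

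AP-1 partners and other bZIP genes, the family that supplies dimer partners to Fos, Jun and Atf3, had a median difference of -0.01 over 19 of 20 listed genes. By limma 0 passed in either fit. Without the block 0 had an unadjusted p under 0.05, and in the blocked fit 1 did, beside 5.77% of all probe sets in its direction: Atf5, singled out by this count, with a blocked difference of -0.31. Mafk had a difference of 0.14, Fosl1 of -0.16, Cebpb of -0.11 and Batf of 0.11. Kinases and promoter-binding factors upstream of the immediate early genes had a median of 0.10 over 20 of 25 listed genes, 14 of them higher, and 0 passed. Mapk14, the p38 kinase, differed by 0.29 ± 0.14 (SE), Atf1 by 0.25 ± 0.16 (SE), Map2k2 by -0.12 ± 0.09 (SE) and Elk4, a partner of serum response factor, by 0.13 ± 0.10 (SE). In the blocked fit 4 genes of this list (Crem, Atf1, Map2k4 and Rps6ka3) had an unadjusted p under 0.05 as higher and 0 as lower, beside 6.53% and 5.77% of all probe sets. Except for Atf1 they are named because of this count.

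Heat shock genes, another group that dissociation and other stress can induce, lay higher in reconSCID in 12 of 14 cases, with a median difference of 0.28 and a blocked median of 0.34, beside -0.01 and -0.01 over all genes. None passed by limma after adjustment. An unadjusted p under 0.05 was found for 3 of 14 as higher and 0 as lower without the block, beside 2.2% and 1.13% of all probe sets. With the block it was found for 7 as higher and for 1, Cryab, as lower, beside 6.53% and 5.77%; Cryab is named because of this count. Hsph1, a chaperone of the Hsp110 family, measured 10.51, 10.77, 10.77 and 10.34 in reconRAG1KO and 11.08, 10.81 and 11.66 in reconSCID. The groups of Hsph1 did not overlap, its difference was 0.58 ± 0.22 (SE), its limma adjusted p was 1, and within the 5 and the 2 arrays it differed by 0.69 and 0.46. Bag3 differed by 0.37 ± 0.14 (SE), Dnaja1 by 0.51 ± 0.21 (SE) and Dnajb4 by 0.49 ± 0.24 (SE). The median over the immediate early genes was -0.02 in the same comparison, and the difference between these lists was not tested.

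**Figure D4:**
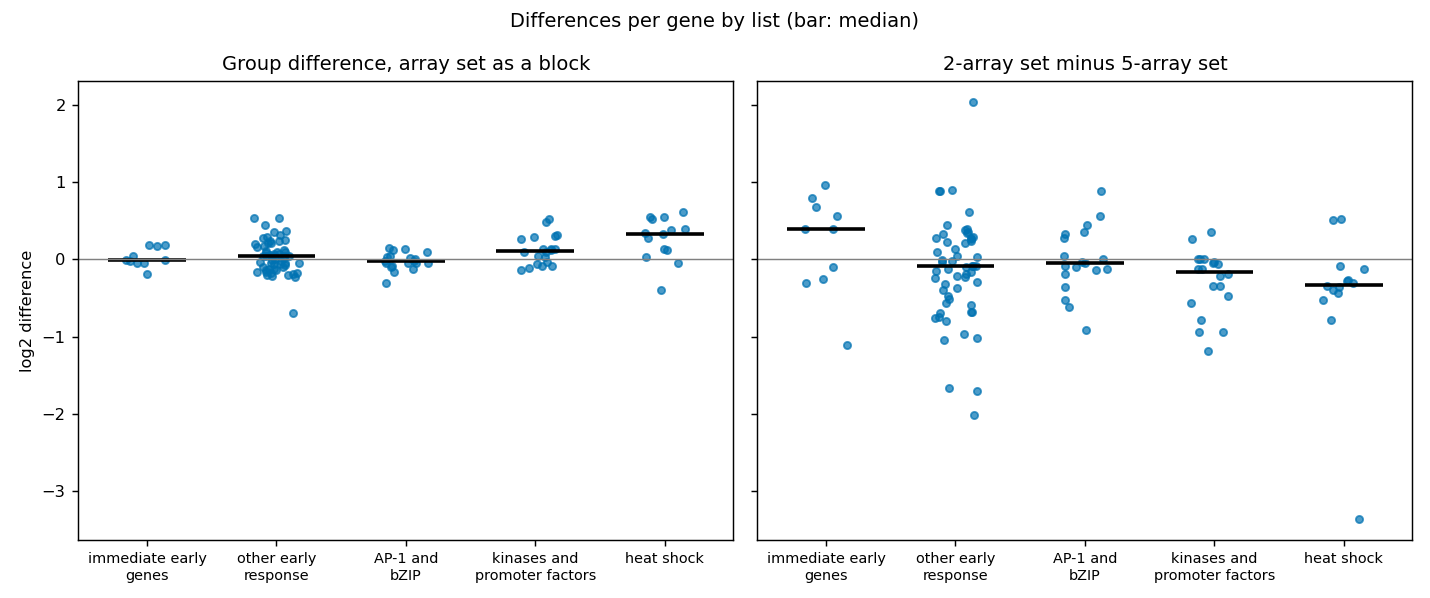
Log2 differences per gene, 1 point per gene and a bar for the median, in the immediate early genes and 4 further lists, on the left for reconSCID minus reconRAG1KO in the blocked fit, and on the right for the smaller minus the larger array set. On the left the immediate early genes lie between -0.19 and 0.19 and most heat shock genes above 0; on the right the immediate early genes spread from -1.11 to 0.96.

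No marker of the sorted cells or of other cells passed between the groups by limma, with or without the block. Medullary epithelial markers were lower in reconSCID in 10 of 10 cases, with a median of -0.51, and their summed intensity ran from 10444 to 18368 in reconRAG1KO and from 6061 to 16891 in reconSCID, and 1 had an unadjusted p under 0.05. B cell markers were higher in 9 of 9, with a median of 0.99 and summed intensities of 989 to 1145 and 1120 to 4050, and neutrophil markers lower in 9 of 10, with a median of -1.48 and summed intensities of 1188 to 9700 and 930 to 1798. An unadjusted p under 0.05 was found for 5 B cell and 2 neutrophil markers, beside 2.2% of all probe sets as higher and 1.13% as lower. In the remaining lists 0 markers had one without the block, and the medians were -0.01 (thymocytes), -0.01 (MHC class II), 0.18 (dendritic cells and macrophages), 0.24 (endothelium and fibroblasts) and -0.12 (cortical epithelium). With the block 5 medullary, 4 neutrophil and 3 cortical markers had an unadjusted p under 0.05 as lower, beside 5.77% of all probe sets. As higher there were 7 B cell, 2 endothelial and fibroblast and 1 of the dendritic cell and macrophage markers, beside 6.53%. No marker was at 0 on any array, but neither was any other probe set, so this does not show which cells were present. The part of these cells in the differences of Fos, Fosb, Atf3 and Junb was not tested. In sorted bulk samples fewer cells of a type and less RNA per cell cannot be told apart. By the array mean of the 10 members, which ran from 10.61 (reconRAG1KO replicate 2) to 10.96 (reconRAG1KO replicate 4) and was 10.83, 10.88 and 10.70 in reconSCID, the most similar of 11540 other genes over the 7 arrays were Map3k7 (Pearson r = 0.974), which encodes the MAP kinase kinase kinase TAK1, Snora75 (0.968) and the splicing factor gene Srsf6 (0.963). The next 7 were Ppp2r3a, Atp2a2, Fbxl2, Ghsr, Sik1, Gnl2 and 0610025J13Rik, at 0.935 to 0.953. These correlations are descriptions over arrays that fall into 2 sets, between which the 10 genes were all higher in the smaller set, by 0.17 (Ghsr) at the least.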

How the data were processed

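The deposited table holds, for 34760 probe sets on 7 arrays, an intensity on a linear scale that the authors had summarised and brought to a similar level by a method not given in the sources used here. Per the labels' protocols, biotin-labelled cRNA was prepared from 6 µg total RNA as Affymetrix describes. Array medians lay between 88.6 and 96.3. Log2 was taken with no pseudocount, since 0 values were below 1. Precision is limited by the number of arrays. In 16049 probe sets (46.2%), and in 3 of the 10 members, at least 2 arrays held the same value.

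Genes were named from the platform annotation (21640 probe sets with 1 symbol, 1321 with several, 11799 unnamed in the table used here) and gene IDs of all 10 members matched the RefSeq table of GRCm38.p6. Groups come from the sample titles. All probe sets were fitted in limma 3.58.1 (R 4.3.3; lmFit, eBayes). Tests were two-sided, p-values were adjusted by Benjamini and Hochberg across the whole table, and 0.05 was the threshold. The procedure was tested on simulated data. Array sets came from average-linkage clustering of the correlations between arrays, divided in 2.

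Members, lists and tests were chosen with earlier results of these data known. Named genes are the members, at most 4 genes per list, taken by the lowest unadjusted p, and the 10 genes above the median level with the highest correlation with the array mean of the members. Genes outside this rule (the Nr4a family, Jund, Ccn1, Dusp2, Cxcl2, Crem, Map2k4, Rps6ka3, Atf5, Cryab) were chosen after their values were seen, and the medullary markers named are examples from their list. The alternatives were quantile normalization, median centring, a pseudocount of 16, leaving out low values, a trended robust fit, array weights, both blocks, the 5 arrays alone, leaving out each sample, the mean of a gene's probe sets and an unadjusted threshold.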

Additional observations from a re-analysis of the deposited data

Results flagged for a closer look

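In the 4 reconRAG1KO samples, the gap between the farthest sample and its nearest neighbour, as a share of the group's range, exceeded the 95% critical value of 0.829 for 13 of the 52 genes named. For 12 of the 13 the sample apart was replicate 4, the reconRAG1KO array of the smaller array set. Replicate 4 was the lowest for Ier3 (a share of 0.920), Atf1 (0.868), Batf (0.895), Nr4a3 (0.856), Dusp2 (0.929), Crem (0.875), Map2k4 (0.995), Rps6ka3 (0.935) and Cd80 (0.883). It was the highest for Jund (0.863) and Atf5 (0.884). For Zfp36 the share was 1, the whole range, because replicates 1 to 3 held the same deposited value and replicate 4 was lower. For Cebpb it was 0.954, with replicate 2 highest at 8.98. Chance gives such a gap in about 1 of 20 separate groups. The 52 genes share the same 4 arrays, and the share over all probe sets was not counted. Replicate 4 belongs to the smaller array set, which was higher without overlap for 32.7% of all probe sets and lower for 18.7%. Several of the 13 genes were named after their values were seen, some because the array sets differed.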

How the results depend on the processing

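Over the 25 alternatives, all chosen with earlier results known, 0 members were called in every case. The median over the members stayed between -0.03 and 0.05 when 1 sample was left out, with or without the array set as a block. Not all of the 25 are separate checks. Each member had 1 probe set, so the mean of a gene's probe sets could not change its difference, and leaving out low values did not. Blocked fits without reconRAG1KO replicate 4 or without reconSCID replicate 2 equalled the fit of the 5 arrays alone. Over all probe sets 0 were called except with array weights (57) and with the unadjusted threshold (1159), under which 0 members had a p under 0.05; leaving out a sample gave 0 to 0. Fos, Fosb and Atf3 stayed higher and Junb lower throughout, at 0.13 to 0.34, 0.03 to 0.48, 0.07 to 0.44 and -0.30 to -0.02 without single samples. The other 6 changed sign, none of them called in any fit. With array weights Ier2, Ier3, Dusp1 and Zfp36 were at 0.0048, 0.05, 0.05 and 0.14; with the array set blocked Egr1 and Ier3 at -0.0031 and 0.05; in the 5 arrays alone Ier2, Ier3 and Zfp36 at 0.02, 0.10 and 0.04; and with quantile normalization Jun at 0.02. Without single samples the ranges were -0.21 to 0.12 (Jun), -0.24 to 0.32 (Egr1), -0.07 to 0.03 (Ier2), -0.30 to 0.36 (Ier3), -0.13 to 0.07 (Dusp1) and -0.22 to 0.08 (Zfp36). The cause was not tested. With the replicate number as a block 0 probe sets were called and Jun was at 0.12; deviations of samples with the same number correlated at 0.47, -0.51 and 0.31, so the numbers were not taken to pair the samples.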
